A study of Glycine max with 36 samples.

Results

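Among the genes of soybean leaves that cycle in constant conditions, 65 had a strong daily rhythm with its highest level at midday. They were chosen by their measured levels in these libraries. The mean of 3 libraries had to be highest at ZT8 within the first 24 h and at ZT32 within the second. The highest mean divided by the lowest mean plus 0.1 FPKM had to reach 8 on each day, and the mean over all 36 libraries had to reach 5 FPKM. The 65 were drawn from 47011 gene identifiers, of which 15627 had a mean of 5 FPKM or more. A further 8 identifiers were left out by name, and 6 of these met the same limits. FPKM is the number of sequenced fragments per kilobase of gene and scaled to the number mapped, so levels can be compared between genes per length.

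The tissue was the unifoliolate leaf, the simple leaf that opens before any trifoliolate one, of Glycine max cultivar Williams 82. Seedlings grew for 9 days in 16 h light and 8 h dark at 28 °C, went to constant conditions on day 10 and were sampled from day 11 on. The sample records also give 50% humidity and a light level of 100 µmol per square metre and second for all groups. ZT is zeitgeber time, the time in h since a dawn of the former light cycle. All groups share this cultivar and regime, and the 12 groups, every 4 h from ZT0 to ZT44, had 3 libraries each, every one pooled from 3 seedlings. A course is therefore built from separate pools, and in such bulk tissue fewer cells of a type and less RNA per cell cannot be told apart. The second 24 h differs from the first both in plant age and in time spent in constant conditions, and these cannot be told apart.

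The plant circadian clock is a set of transcription factors that repress or activate each other in sequence, so that different genes reach their maximum at different times of day. The rhythm goes on when light and temperature are held constant, which separates it from a direct response to light. In leaves, genes whose output is timed in this way are known to serve photosynthesis, carbon use, growth and defence. The deposited identifiers are not paired with gene names, and 0 of the 65 matched the reference table of soybean genes, so no function is given to any member. For the same reason the leaf was not checked against its marker genes, and no sequence is shown.

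Whole-library measures set the frame for what follows. Depth is unknown, since the table holds no counts. The level of the median tested gene changed with time of day, from a mean of 2.55 at ZT4 to 3.02 at ZT40 on the log2(FPKM + 1) scale. Among the 36 libraries, 3 of the second subjective night, replicate 2 at ZT40 and replicates 2 and 3 at ZT44, lay away from the rest on a principal component that held 3.33% of the variance. Results that use these libraries are given below with and without them where the call changes.

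The limits of the rule cut through a continuous range. The 3 members nearest the fold limit had 8.13, 8.19 and 8.85 on their weaker day, and the 3 nearest genes outside it had 7.95, 7.92 and 7.90. The 3 members of lowest level had a mean of 5.598, 5.781 and 5.869 FPKM, and the 3 nearest genes below had 4.82, 4.69 and 4.36 FPKM. Another 675 genes met every condition but the fold, and 48 met every condition but the level. Peak times and folds within a day chose the members and are therefore given as descriptions.

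Most members were of modest level. The median of the 65 mean levels was 16.3 FPKM, 38 members lay below 20 FPKM and 20 between 20 and 100 FPKM, and 7 averaged 100 FPKM or more. Of these 7, 4 averaged 1624 FPKM or more. Together the members held 3.45% ± 0.0453 of the summed FPKM at ZT8 (SD, n = 3), 0.211% ± 0.0171 at ZT16, 3.16% ± 0.00967 at ZT32 and 0.290% ± 0.0603 at ZT40. Most of this share came from the 4 most abundant members, which held 2.63% ± 0.0287 at ZT8 and 2.43% ± 0.0289 at ZT32. The other 61 held 0.828% ± 0.0739 at ZT8 and 0.727% ± 0.0195 at ZT32, and their lowest shares came at ZT20 and ZT44, with 0.0378% ± 0.00366 and 0.0420% ± 0.00405. The first-day fold had a median of 21.8 and ran from 8.13 to 364. The fold of the second day had a median of 15.9 and ran from 8.85 to 294. The second-day fold was the smaller one in 46 of the 65 members, and the median of the ratio of the second to the first was 0.727. As both folds were part of the rule, this is not a test of damping.

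The lowest level did not always fall 12 h from the peak. On the first day 37 members were lowest at ZT20, 16 at ZT16 and 12 at ZT0. On the second day 43 were lowest at ZT44, 13 at ZT40, 5 at ZT24 and 4 at ZT28. The trough lay 12 h after the peak on both days in 31 members. In 10 members it came at ZT16 and ZT40, 8 h after the peak, and in 4 it came before the rise, at ZT0 and ZT28.

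**Figure D1:**
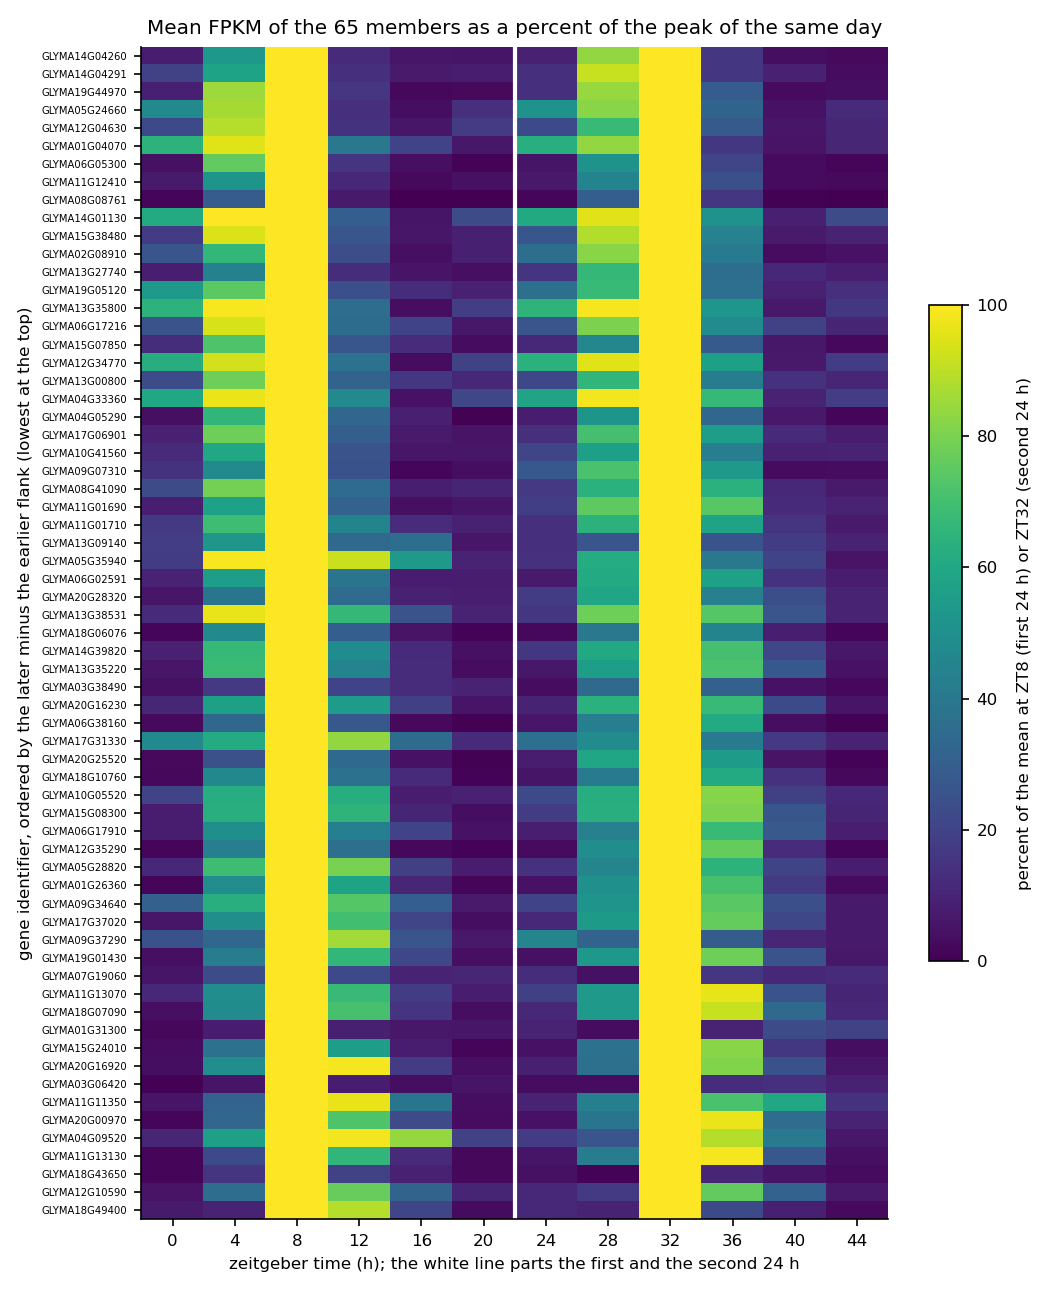
Mean FPKM (n = 3 libraries) of each of the 65 members at 12 zeitgeber times, as a percent of the mean at ZT8 for the first 24 h and at ZT32 for the second, with members ordered by the later minus the earlier flank, lowest at the top. The column of 100% at ZT8 and ZT32 is set by the rule, while the columns on either side run from 0.954% to 99.7% of the peak.

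The peak was broad in some members and narrow in others. On the first day the level at ZT4 was 5.73% to 99.7% of that at ZT8 (median 56.3%), and the level at ZT12 was 7.35% to 98.7% (median 35.9%). On the second day ZT28 stood at 0.954% to 98.6% of ZT32 (median 54.5%), and ZT36 at 9.98% to 98.7% (median 54.0%). In 7 members both neighbouring times lay under 50% of the peak on both days. At the other end, ZT4 reached at least 80% of ZT8 in 12 members, and ZT12 did so in 7. In single libraries, all 3 libraries at ZT8 lay above all 3 at ZT4 in 45 members and above all 3 at ZT12 in 56. All 3 at ZT32 lay above those at ZT28 in 52 and above those at ZT36 in 49. All 4 of these conditions held in 29 members. The rule had already set the mean at the peak above these neighbours, so the counts describe the members and do not test the peak. Their shares over all genes were not counted.

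GLYMA14G01130 had the highest mean level, 3970 FPKM. It had 7545, 7140 and 7802 FPKM at ZT8, which overlapped with 7515, 7235 and 7662 FPKM at ZT4, so the maximum of the first day spread over both times. It was still at 4572 FPKM ± 463 at ZT0 and fell to 425 FPKM ± 69.0 at ZT16, with 605 FPKM ± 249 at ZT40 (SD, n = 3 each). GLYMA13G35800, GLYMA04G33360 and GLYMA12G34770, with means of 2163, 1953 and 1624 FPKM, were also high at ZT4 and ZT28 and lowest at ZT16 and ZT40. At ZT4 GLYMA13G35800 stood at 98.9% of its level at ZT8, GLYMA04G33360 at 96.9% and GLYMA12G34770 at 93.2%. In GLYMA12G34770 all 3 libraries at ZT8 nevertheless lay above all 3 at ZT4, while its libraries at ZT32 and ZT28 overlapped.

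GLYMA06G38160 had a mean level of 429 FPKM and a first peak at ZT8 alone, with ZT4 at 33.8% of it. On the second day its libraries at ZT32 and ZT36 overlapped. It had 1784, 1698 and 1702 FPKM at ZT8 and 7.15, 8.33 and 7.15 FPKM at ZT20. At ZT32 it had 1129, 1251 and 805 FPKM, and at ZT44 it had 6.43, 8.20 and 8.19 FPKM. No library at a peak came near one at a trough, and its folds were 226 on the first day and 138 on the second. Only 2 members exceeded a fold of 100 on both days, GLYMA06G38160 and GLYMA08G08761.

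GLYMA08G08761 was singled out after its values were seen, because it had the largest fold on both days, 364 and 294. Its level was 75.2, 77.3 and 109 FPKM at ZT8 and 40.7, 32.3 and 48 FPKM at ZT32. It was listed at 0 in 1 library at ZT16 and in 2 at ZT44, so its folds rest on troughs at the lower end of the measurement.

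GLYMA18G43650 is one of 4 members that were lowest at ZT0 and ZT28, also singled out afterwards. On the second day the lowest time came 4 h before the peak, and on the first day 8 h before it. It had 86.0, 171 and 95.5 FPKM at ZT8 and 41.2, 11.0 and 1.45 FPKM at ZT4, so the libraries at ZT4 differed widely from each other. On the second day it had 39.3, 51.0 and 59.7 FPKM at ZT32 and 0.441, 0.269 and 0.721 FPKM at ZT28, with no overlap. In the other 3, GLYMA01G31300, GLYMA03G06420 and GLYMA07G19060, ZT0 and ZT28 were likewise the lowest times, and the mean at ZT28 was 3.17%, 3.23% and 4.58% of that at ZT32. On the first day their mean at ZT4 was 7.48%, 5.73% and 23.1% of that at ZT8.

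**Figure D2:**
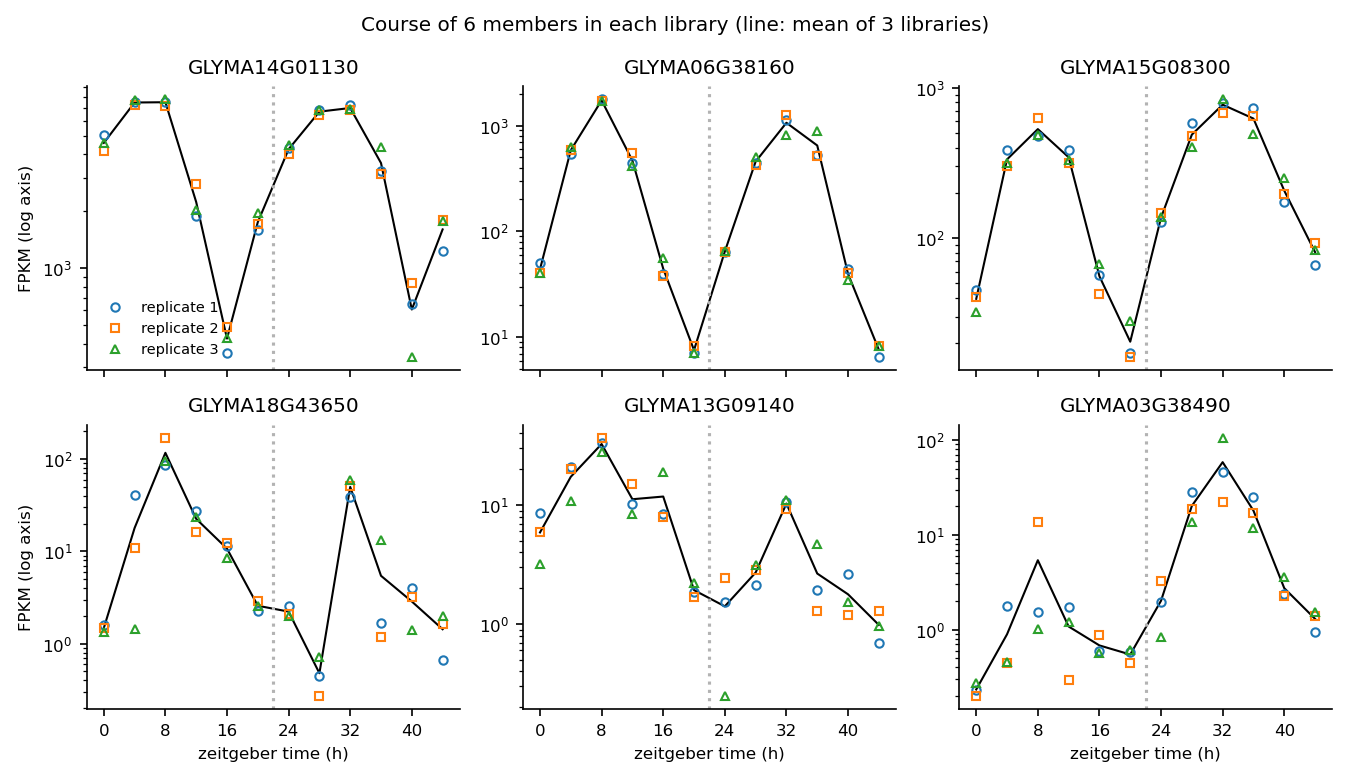
FPKM on a log axis against zeitgeber time for 6 members, with 1 symbol per library and the mean of 3 as a line; the dotted line parts the days. GLYMA14G01130 has like levels at ZT4 and ZT8, GLYMA06G38160 a first peak at ZT8 alone, GLYMA15G08300 a higher second day, GLYMA18G43650 a steep rise between ZT28 and ZT32, GLYMA13G09140 a lower second day, and GLYMA03G38490 a first peak carried by replicate 2.

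The spread between replicates at the peak was moderate for most members. The SD was 14.6% of the mean at ZT8 in the median member and 11.8% at ZT32. It exceeded 45% at one of the peaks in 6 members. The largest was GLYMA03G38490, at 133% of the mean at ZT8, where replicate 2 had 13.7 FPKM and replicates 1 and 3 had 1.54 and 1.01 FPKM.

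The level of the members between the days, which the rule did not use, was tested next. At matched times of day 25 members were higher and 16 were lower in the second 24 h than in the first, and 24 did not pass the test. Among all 27449 genes tested, 29.8% were called higher and 18.8% lower, against 38.5% and 24.6% of the members. With only the 15627 genes of 5 FPKM or more tested, as all members are, 33.9% were higher and 18.1% lower. That setting called 25 members higher and 17 lower. The median difference was 0.10 on the log2(FPKM + 1) scale for members and 0.03 for all tested genes. Members ranged from -1.65 to 2.19, with quartiles of -0.29 and 0.55. Of the 675 genes with the same peak times and a smaller fold, 274 (40.6%) were higher and 140 (20.7%) lower, with quartiles of -0.10 and 0.25. The test was limma's moderated test over the 36 libraries with Benjamini-Hochberg adjustment at 0.05 over all tested genes. Without the 3 libraries that stood apart, 27 members were higher and 18 lower, against 32.4% and 19% of all tested genes.

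GLYMA15G08300 was the most abundant of the members that rose, with a mean of 303 FPKM. It had 791, 681 and 843 FPKM at ZT32, against 475, 629 and 489 FPKM at ZT8, and the groups did not overlap. Over the whole day it was higher by 1.26 ± 0.13 on the log2 scale (SE, limma adjusted p = 1.86e-09). The ratio between the days was widest at its low points, with 80.8 FPKM ± 13.3 at ZT44 against 20.5 FPKM ± 6.61 at ZT20 (SD, n = 3 each).

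GLYMA03G38490 had the largest rise, 2.19 ± 0.29 (SE, limma adjusted p = 1.29e-07). It had 46.5, 22.3 and 106 FPKM at ZT32, against 1.54, 13.7 and 1.01 FPKM at ZT8. The groups did not overlap, although the 3 libraries of each group spread widely.

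GLYMA13G09140 and GLYMA01G04070 fell most between the days. GLYMA13G09140 had 10.6, 9.24 and 11.0 FPKM at ZT32, against 33.3, 36.9 and 27.7 FPKM at ZT8 (difference -1.65 ± 0.16 over the day, SE, limma adjusted p = 4.94e-10). GLYMA01G04070 had 12.0, 9.78 and 17.4 FPKM at ZT32, against 38.0, 33.3 and 42.9 FPKM at ZT8 (-1.65 ± 0.18, limma adjusted p = 3.53e-09). In neither did the libraries at ZT32 overlap with those at ZT8. GLYMA17G31330, with a mean of 99.2 FPKM, fell by 1.38 ± 0.16 (SE, limma adjusted p = 1.25e-08).

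**Figure D3:**
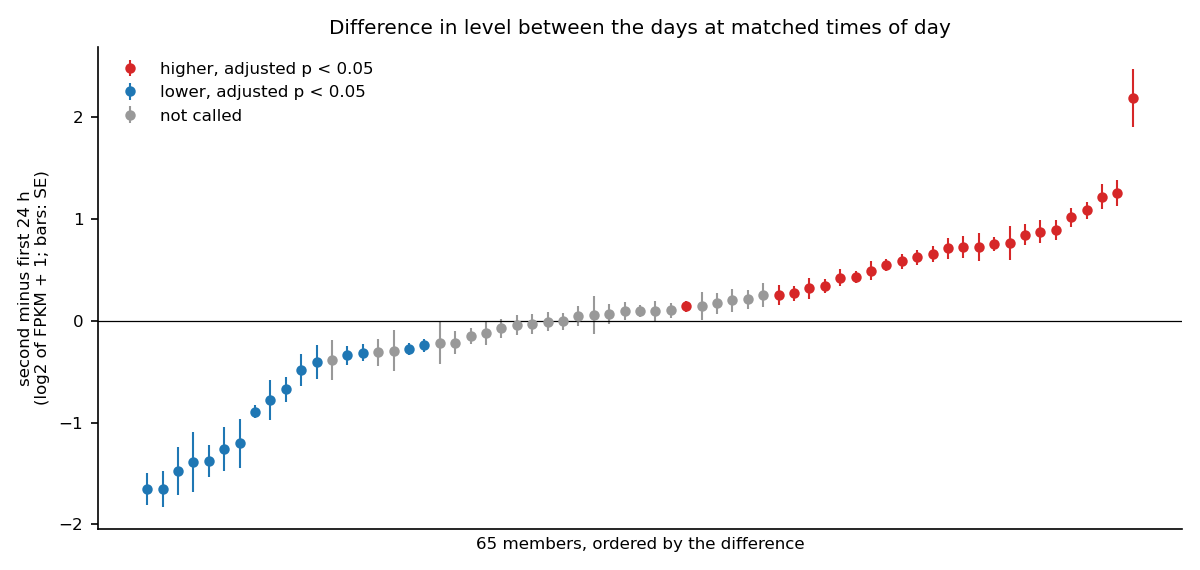
Difference in level between the second and the first 24 h for each of the 65 members on the log2(FPKM + 1) scale, with time of day as a factor; bars are standard errors. The 25 red points above 0 and the 16 blue points below it passed the limma test, and the range is -1.65 to 2.19.

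The height of the peak was compared on its own, ZT32 against ZT8, with the same test. It was higher at ZT32 in 12 members and lower in 12, or 18.5% each, against 11.1% and 6.60% of all tested genes. The other 41 did not pass. The values at ZT8 and ZT32 also entered the rule, each against its own day, so nothing is read from the members' share beside that of unselected genes. The median difference was -0.09 for members and 0.04 for all tested genes. GLYMA11G12410 had 201, 181 and 298 FPKM at ZT32, against 91.0, 136 and 58.2 FPKM at ZT8, a rise of 1.29 ± 0.23 (log2, SE, limma adjusted p = 2.38e-04). GLYMA06G38160, whose level over the whole day did not pass (-0.04 ± 0.10, adjusted p = 0.774), had a lower second peak by this test, at -0.73 ± 0.17 (adjusted p = 0.00348). GLYMA03G38490, described above, had the largest difference, 3.54 ± 0.50 (adjusted p = 1.73e-05), and its mean at ZT8, which also made it a member, rests on replicate 2. The largest falls were again those of GLYMA13G09140 (-1.57 ± 0.34, adjusted p = 0.00208) and GLYMA01G04070 (-1.50 ± 0.38, adjusted p = 0.00628). With replicate number 1 left out at every time point, 4 members were higher and 4 lower, and these falls had adjusted p = 0.0724 and 0.142. Among all tested genes 2.82% were then higher and 1.43% lower. Without replicate number 2, 14 members were higher and 7 lower, against 7.83% and 3.34% of all tested genes. Without replicate number 3, 7 members were higher and 16 lower, against 5.74% and 3.92%. The even split thus depended on the libraries.

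Before the rise, at subjective dawn, 19 members were higher at ZT24 than at ZT0 and 5 were lower. These were 29.2% and 7.69% of the members, against 8.33% and 7.06% of all tested genes. The median difference was 0.31 for members and 0.03 for all tested genes. Of 140 genes highest at ZT12 and ZT36 by the same limits, 38.6% were higher and 2.14% lower, with a median of 0.295. Of 31 highest at ZT4 and ZT28, 3.23% were higher and 9.68% lower. Of the 675 genes with the same peak times and a smaller fold, 15.3% were higher and 9.04% lower. ZT0 was the lowest time of the first day in 12 members and ZT24 that of the second in 5, and there the rule used these values. GLYMA15G08300 had 128, 146 and 138 FPKM at ZT24, against 45.5, 40.4 and 32.5 FPKM at ZT0, without overlap (1.79 ± 0.19 on the log2 scale, SE, limma adjusted p = 2.29e-07). GLYMA20G16920 had 2.80, 4.36 and 2.24 FPKM at ZT24, against 0.697, 0.709 and 0.365 FPKM at ZT0 (1.35 ± 0.20, adjusted p = 1.87e-05). It is one of the members lowest at ZT0 on the first day, so the rule used that value. GLYMA01G04070 and GLYMA13G09140, the members with the largest falls here too, had differences of -1.56 ± 0.38 and -1.56 ± 0.34 (SE, limma adjusted p = 0.00472 and 0.0021). The 3 comparisons between the days share libraries, so their calls are not separate evidence. With replicate number 1 left out at every time point, 11 members were higher and 1 was lower, and both of these falls lost their call (adjusted p = 0.14 and 0.12). Among all tested genes 2.65% were then higher and 2.11% lower. Without ZT24 replicate 2 alone 12 were higher, and without ZT24 replicate 3 alone 3 were lower, with adjusted p = 0.0515 for GLYMA01G04070. Of all tested genes 4.85% were higher in the former setting and 4.52% lower in the latter.

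The rule did not set the flanks of the peak against each other. In the 4 members lowest at ZT28, however, it used that value as the trough. There ZT36 could not lie below ZT28. The mean of ZT12 and ZT36 (the later flank) was compared with that of ZT4 and ZT28 (the earlier flank). As deposited, the later flank was higher in 18 members and lower in 27, or 27.7% and 41.5%, and 20 did not pass the limma test. Among all tested genes 67.5% were higher on the later flank and 12.6% lower, with a median difference of 0.39, while the members had a median of -0.19. After each library was rescaled by its median ratio, which takes that general shift out, 10 members were higher and 38 lower, against 30.8% and 30.9% of all tested genes. Of the calls as deposited, 10 of the 18 higher and 27 of the 27 lower were made again, and the member median was -0.61 on that scale. The rule set the means at both flanks below the peak, which left out genes highest at ZT12 and ZT36. Nothing is therefore read from the members' shares beside those of unselected genes. Of the 675 genes with the same peak times and a smaller fold, 20.3% were higher on the later flank as deposited and 28.7% lower. Their median was -0.01.

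The earlier flank was higher most in GLYMA14G04260 and GLYMA14G04291. GLYMA14G04260 had 28.1, 60.8 and 61.0 FPKM at ZT12, against 176, 386 and 107 FPKM at ZT4, and 52.4, 40.9 and 90.6 FPKM at ZT36, against 486, 345 and 133 FPKM at ZT28. The flanks did not overlap on either day, and the later minus the earlier was -2.14 ± 0.32 (log2, SE, limma adjusted p = 6.05e-07). GLYMA14G04291 had a difference of -2.00 ± 0.31 (adjusted p = 1.08e-06). The later flank was higher most in GLYMA18G49400, with 31.2, 32.5 and 18.6 FPKM at ZT12, against 2.82, 2.91 and 3.18 FPKM at ZT4 (1.71 ± 0.34 over both days, adjusted p = 4.01e-05). At ZT36 it had 0.612, 1.84 and 8.36 FPKM, against 0.449, 0.986 and 3.11 FPKM at ZT28, and there the flanks overlapped. GLYMA12G10590 followed with 1.53 ± 0.27 (adjusted p = 7.16e-06).

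Whether the balance of the flanks differed between the days was tested next. The later minus the earlier flank, a signed value, was higher on the second day than on the first in 51 of the 65 members. Its median over the members was -0.08 on the second day and -0.45 on the first (log2). The test of the difference between the days, an interaction in limma, called 15 members (23.1%) with a shift to the later side and 0 to the earlier side, against 2.07% and 2.95% of all tested genes. The other 50 did not pass, among them the 2 members with the largest differences of either sign, GLYMA18G49400 (-2.18 ± 0.67, adjusted p = 0.0565) and GLYMA09G37290 (-1.70 ± 0.67, adjusted p = 0.153). The median shift was 0.46 for members and -0.10 for all tested genes. Of the 675 genes with the same peak times and a smaller fold, 5.48% shifted to the later side and 1.63% to the earlier side. Their median shift was 0.157, and 502 of the 675 had a shift above 0. All 15 members called had the higher level on the earlier flank on the first day, and 11 still did on the second. On the rescaled data 17 were called, among them all 15, and again 0 in the other direction. Of all tested genes 2.92% then shifted to the later side and 1.48% to the earlier side, with a median of 0.02.

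GLYMA12G04630 had the largest called shift, 1.26 ± 0.21 (log2, SE, adjusted p = 3.19e-04, limma interaction). It had 31.8, 33.6 and 31.3 FPKM at ZT36, against 6.70, 9.70 and 9.76 FPKM at ZT12, and 79.7, 77.0 and 73.1 FPKM at ZT28, against 57.6, 45.3 and 56.5 FPKM at ZT4. Both flanks were thus higher on the second day, the later one by more. GLYMA11G12410 had a shift of 1.22 ± 0.32 (adjusted p = 0.0224). GLYMA06G38160 had a shift of 0.80 ± 0.24 (adjusted p = 0.0493), with 531, 519 and 894 FPKM at ZT36, against 439, 546 and 414 FPKM at ZT12, and these libraries overlapped. The count depended on the libraries. It was 3 without replicate number 1, 5 without number 2 and 9 without number 3, where 4 members also shifted the other way. The share of all tested genes with a shift to the later side was 0.496%, 0.717% and 1.96% there, against 2.07% with all libraries. Without number 3, 3.31% of all tested genes shifted to the earlier side, against 2.95% with all libraries. With 1 library left out the count was at most 14. It was 7 without ZT28 replicate 3, 8 without ZT4 replicate 1, 8 without ZT12 replicate 1 and 9 without ZT12 replicate 3. Of all tested genes 1.57%, 1.41%, 1.45% and 2.01% were called in these settings. The call of GLYMA11G12410 was lost in several of these, with adjusted p of up to 0.437.

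**Figure D4:**
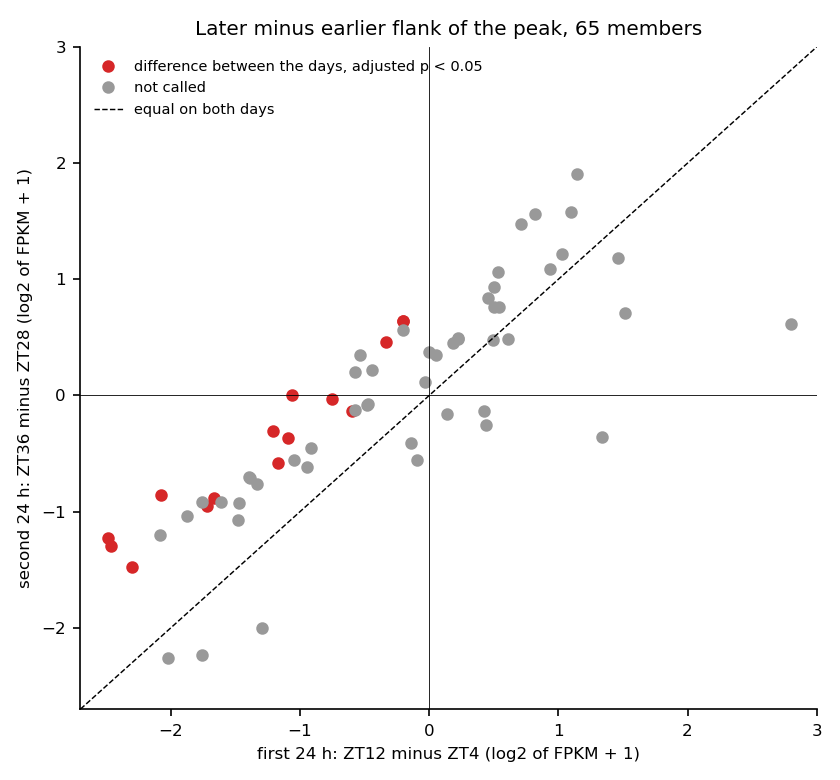
Later minus earlier flank of the peak on the log2(FPKM + 1) scale for the 65 members, ZT36 minus ZT28 on the vertical axis and ZT12 minus ZT4 on the horizontal axis. The 51 points above the dashed line had a higher signed difference on the second day, and the 15 red points passed the limma interaction test.

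The same test was read for genes with equally strong rhythms highest 4 h earlier or later. Of 31 genes highest at ZT4 and ZT28, 22 shifted to the later side and 0 to the earlier side. Of 140 highest at ZT12 and ZT36, 1 shifted to the later side and 42 to the earlier side. For these neighbours the contrast includes the peak itself, so the counts stand side by side and the difference between the sets was not tested.

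The replicates at a time point hold information that the rule, which used their means, did not. The deviation of each library from its time point mean was correlated between members over the 36 libraries. Over 2080 pairs of members the median r was 0.15, against 0.04 over all pairs of the 15627 genes with at least 5 FPKM, and 1.44% of pairs against 0.807% exceeded 0.8. The points share libraries and these r values are descriptions. Linking members at r over 0.8 gave 5 sets with 7, 4, 4, 2 and 2 members, and the other members were linked to none. The sets, and the members named from them, were picked out after their values were seen.

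The set of 7 held the 4 most abundant members and 3 others, and its highest r, between GLYMA12G34770 and GLYMA13G35800, was 0.977. All 7 were lowest at ZT16 and ZT40. At ZT36 replicate 3 was the highest library in all 7 and at ZT40 it was the lowest, as in GLYMA14G01130 with 4359 FPKM at ZT36, against 3240 and 3147 FPKM in the other replicates, and 338 FPKM at ZT40, against 644 and 833 FPKM. The mean levels of the set ran from 15.1 FPKM in GLYMA05G24660 to 3970 FPKM in GLYMA14G01130.

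One set of 4 was made of the members lowest at ZT0 and ZT28, among them GLYMA18G43650. In all 4, replicate 1 was highest and replicate 3 lowest at ZT4, and replicate 2 was highest at ZT8. The other set of 4 held GLYMA01G04070, GLYMA09G37290, GLYMA17G31330 and GLYMA18G49400, which were all called lower over the second day in the test of level. The log2 level fell by 1.65 in GLYMA01G04070, fell by 1.47 in GLYMA09G37290, fell by 1.38 in GLYMA17G31330 and fell by 1.20 in GLYMA18G49400. In these 4, replicate 3 was the highest library at ZT4, ZT8, ZT28, ZT32, ZT36 and ZT40. Whether members of a set are near-identical copies that share fragments was not tested.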

How the data were processed

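Expression was read from 1 deposited table of FPKM values, 47011 identifiers by 36 libraries. Per the submitters' processing notes, TopHat2 2.1.0 and HTSeq 0.6.0 were used. The sources used here do not give how the authors computed FPKM, nor the build or annotation. Counts were not used, so depth is unknown and low values carry a counting error that cannot be stated.

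The members, gene lists and tests were chosen with earlier results of these data known. Members were found from time point means. Tests used log2(FPKM + 1) of 36 libraries in limma 3.58.1 (R 4.3.3), whose prior variance followed a trend. The 27449 genes averaging 1 FPKM or more were tested, with Benjamini-Hochberg adjustment at 0.05. The fit of level between days had a term for time of day, and the other contrasts a term for each of the 12 time points. A fold on this scale understates the change of low genes. The fitting was tested on simulated data. Labels call the 3 libraries of a time point biological repeats, grouped by their zeitgeber time.

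Alternatives were median-ratio and quantile scaling, pseudocounts, filters on low values, no variance trend, a replicate block, left-out libraries, and other limits of the rule. Named members are those of highest mean level and at most 2 rises and 2 falls per comparison, with exceptions marked in the text as chosen after their values were seen. That short rule applied because 0 of 47011 identifiers matched the RefSeq table (Glycine_max_v4.0, 59048 genes). Pathway lists, tissue markers, promoter motifs and sequences were therefore not used here.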

Additional observations from a re-analysis of the deposited data

Results flagged for a closer look

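By the limma interaction test, the balance between the later and the earlier flank differed between the days in 15 of the 65 members. All 15 shifted to the later side on the second day. Of all tested genes 2.07% shifted to the later side and 2.95% to the earlier side. The count was 3, 5 and 9 without replicate number 1, 2 and 3, against 0.496%, 0.717% and 1.96% of all tested genes. Without number 3, 4 members shifted the other way, as did 3.31% of all tested genes. The largest of the 15 shifts was in GLYMA12G04630, with a log2 of 1.26. GLYMA11G12410 had a log2 shift of 1.22, and this call was lost when replicate number 1, or ZT28 replicate 3 alone, was left out. What lies behind the shift was not tested.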

How the results depend on the processing

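Limits. Peak times rest on samples 4 h apart, values below 1 FPKM are of unknown depth, and plant age and time in constant conditions cannot be told apart. A fold limit of 6 in place of 8 gave 106 members. Median-ratio rescaling left 10 members with a higher later flank. For the flanks between days, 1 member shifted to the earlier side with a pseudocount of 5, a minimum mean of 5 FPKM, or the replicate block. Of all tested genes 3.49%, 3.46% and 2.98% did so. With replicate number as a block, 25 members were higher and 16 lower between days, against 29.7% and 18.7% of all tested genes. At the peak it was 11 and 12 (all genes 11.2% and 6.7%), and on the flanks 18 and 28 (67.6% and 12.6%). For the flanks between days it was 14 and 1 (2.1% and 2.98%), and at dawn 20 and 5 (8.46% and 7.22%). Over 198 same-numbered pairs of libraries the correlation of deviations averaged 0.0114, ran from -0.32 to 0.603, and exceeded 0.1 in 42. Over 396 pairs with different numbers the mean was -0.00615 and the largest 0.515. These values do not settle whether the numbers pair libraries, and the main fits did not pair them. Dropping the 3 libraries that lay apart gave 27 higher and 18 lower between days, against 32.4% and 19% of all tested genes. For the flanks between days it gave 17 and 0 (2.53% and 3.94%), and at dawn 19 and 5 (10.1% and 8.72%). Without replicate number 2, 7 were lower at the peak, and without number 3, 7 were higher there and 9 shifted to the later flank. For that shift, 7 remained without ZT28 replicate 3, and 2 went the other way without ZT36 replicate 3. Of all tested genes 1.57% and 3.27% did so. The rule gave 62 to 74 members without 1 replicate number, and 45 of the 65 met it without each number in turn. It shared 55 with the 65 without number 2, 55 without number 3, 63 without number 1 and 54 after median-ratio rescaling. Leaving out 1 library or 1 replicate number gave 22 to 27 higher and 14 to 17 lower between days, 4 to 15 higher and 4 to 16 lower at the peak, 16 to 20 higher and 27 to 31 lower on the flanks, 3 to 14 higher and 0 to 4 lower for the flanks between days, and 11 to 20 higher and 1 to 6 lower at dawn. Without 1 replicate number, fewer of all tested genes were called too, save for shifts to the earlier side without number 3. At most 2 rises and 2 falls per comparison were followed through the alternatives. None of these changed direction. Their call was kept in 468 checks and lost in 12. Effects of other named members were not followed.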
